A study of Mus musculus with 21 samples.

Results

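The 10 genes described here belong to fibroblast growth factor (FGF) signalling. They are the FGF receptor genes Fgfr1, Fgfr2, Fgfr3 and Fgfr4, the Sprouty genes Spry1, Spry2 and Spry4, the phosphatase gene Dusp6, and the transcription factor genes Etv4 and Etv5. They were taken by gene symbol from the 48321 symbols of each count table. No threshold on their values was used, but earlier results of these data were known when they were chosen. All 10 passed the filter on low counts, which kept 14311 genes in all. RNA was sequenced from embryoid bodies, clumps in which mouse embryonic stem cells (here of the C57BL/6 strain) differentiate, on day 3 of differentiation. There were 7 groups of 3 samples, all made from A2loxCre cells, in which an integrated coding sequence is switched on with doxycycline, here for 16 h. The groups were parental A2loxCre cells given doxycycline, cells carrying the TWIST1 monomer and given none (uninduced), the same monomer cells given doxycycline (induced), and 4 doxycycline-treated lines with an integrated dimer construct. The dimers were TWIST1-TWIST1 (homodimer), TWIST1-TCF3, TWIST1-TCF4 and TWIST1-TCF12, the last 3 joining TWIST1 to an E-protein. Only the monomer line was sampled without doxycycline, so in each dimer line the effect of the integrated line and that of its induction cannot be told apart. Whether a line is 1 clone, and whether the 3 samples of a group are separate cultures, is not given in the sources used here. The p-values therefore measure the spread between these samples, which may be technical.

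FGF ligands bind receptor tyrosine kinases at the cell surface together with heparan sulphate, and the receptors signal through RAS to the kinase ERK. ERK activity switches on genes that act back on the pathway: Sprouty proteins restrain signalling upstream of ERK, the DUSP6 protein dephosphorylates ERK, and ETV4 and ETV5 are ETS-family factors that carry the response to further genes. In the early mouse embryo, FGF4 helps cells leave naive pluripotency and helps to form primitive endoderm, in which Fgfr3 and Fgfr4 are known to be expressed. TWIST1 is a basic helix-loop-helix factor that binds DNA as a dimer, and mutations in TWIST1 and in FGF receptor genes cause related human syndromes of early skull suture closure.

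Total counts per sample lay between 6648842 and 15999693. Levels are in CPM, the share of a sample's counts on a common scale of library size, computed here from the deposited counts with TMM factors, and a group is given as its samples 1, 2 and 3 or as mean ± SD (n = 3). Twist1 was at 8.11 ± 0.789 CPM in parental samples and between 39.4 ± 2.93 CPM (TCF4 dimer line) and 613 ± 31.6 CPM (induced monomer line) in the induced groups. Tcf4 was raised in TCF4 dimer samples, but Tcf3 was at 154 ± 4.53 CPM in its own dimer group against 167 ± 5.92 in parental samples. Tcf12 was at 93.1 ± 34.8 CPM in its group against 66.1 ± 3.03 in parental samples (adjusted p = 0.0548), so these groups are called the TCF3-labelled and the TCF12-labelled libraries after their labels. The samples of the latter differed from one another more than those of other groups did. For each sample, the log2 deviation of every gene from the mean of the other 2 samples of its group was taken. The SD of these deviations over genes was 0.721, 0.347 and 0.455 in samples 1, 2 and 3, where the other groups' 18 samples ranged from 0.19 to 0.3. These deviations followed transcript length, with Spearman's rho over genes of -0.575, 0.497 and 0.539 (-0.260 to 0.281 in the other groups). The deviations of the 3 samples of a group are tied to one another, and the means used for samples 2 and 3 contain sample 1. The common coefficient of biological variation was 0.120 over all samples, 0.0539 without sample 1 of this group, 0.115 without its sample 2 and 0.105 without its sample 3. Calls that changed without sample 1 are therefore given with and without it. As a check of the tissue, the 10 epiblast markers summed to between 2310.1 and 4704 CPM over the samples. Their sum was 4516 to 4704 CPM in parental samples, 4145 to 4250 in uninduced and 3484 to 3851 in induced monomer samples. It was 3637 to 3665 CPM in homodimer and 3597 to 3680 in TCF4 dimer samples. The TCF3-labelled libraries had 2310.1 to 2579 CPM and the TCF12-labelled ones 2864 to 3364. The 13 primitive streak and early mesoderm markers summed to 241 to 286 CPM in parental samples and to between 26.2 and 65.8 CPM in the samples of the 6 other groups, with Msgn1 at 0 in all 3 parental samples. Of the 10 streak markers tested, 8 to 10 were lower than in parental samples in each of the 6 groups and 0 higher, with medians of -3.68 to -2.94 on the log2 scale. This difference ran with every comparison against the parental line, and its part in the results below was not tested.

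RefSeq promoter sequences (GRCm38.p6, from 250 bases before to 50 after a gene's start) were used for 7 of the 10 genes, with 9 promoters in all. None was used for Fgfr1, Spry4 or Etv4, so the promoters of these genes were not examined, and their absence here does not mean that RefSeq lacks them. The promoters of Fgfr2, Fgfr4, Spry2 and Dusp6 are shown because these genes carry the patterns described below: Fgfr2 and Dusp6 were higher and Spry2 lower in several dimer groups, and Fgfr4 was high in the monomer line. TWIST1 and E-proteins are known to bind E-boxes, CANNTG, which reads the same on both strands. The capitals mark each E-box in the first 260 bases of the window, 5′ to 3′ on the gene's strand.
Fgfr2 (chr7:130266759-130267058, reverse strand): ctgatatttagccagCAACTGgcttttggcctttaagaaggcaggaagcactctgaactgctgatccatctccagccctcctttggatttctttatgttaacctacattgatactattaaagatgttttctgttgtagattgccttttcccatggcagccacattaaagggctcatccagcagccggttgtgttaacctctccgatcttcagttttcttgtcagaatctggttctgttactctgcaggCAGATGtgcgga
Fgfr4 (chr13:55152568-55152867, forward strand): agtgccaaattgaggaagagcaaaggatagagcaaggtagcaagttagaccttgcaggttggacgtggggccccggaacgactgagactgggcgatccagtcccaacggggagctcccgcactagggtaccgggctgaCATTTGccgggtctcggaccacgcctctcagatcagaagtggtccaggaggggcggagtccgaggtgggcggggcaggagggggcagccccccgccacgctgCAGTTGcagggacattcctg
Spry2 (chr14:105896770-105897069, reverse strand): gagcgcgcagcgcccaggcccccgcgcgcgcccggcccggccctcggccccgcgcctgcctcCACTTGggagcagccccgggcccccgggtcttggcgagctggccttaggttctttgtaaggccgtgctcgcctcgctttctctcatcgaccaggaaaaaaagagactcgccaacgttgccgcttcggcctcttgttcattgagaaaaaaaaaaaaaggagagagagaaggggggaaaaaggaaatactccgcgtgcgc
Dusp6 (chr10:99262981-99263280, forward strand): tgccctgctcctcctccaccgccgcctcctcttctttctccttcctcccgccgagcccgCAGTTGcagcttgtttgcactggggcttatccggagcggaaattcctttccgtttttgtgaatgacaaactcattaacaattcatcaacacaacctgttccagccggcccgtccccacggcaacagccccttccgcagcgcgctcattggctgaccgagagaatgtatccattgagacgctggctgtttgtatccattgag
The Fgfr2 promoter held 3 E-boxes, CAACTG at position -235, CAGATG at -2 and CACGTG at 28, counted from the start of transcription to the first base of the motif (the last lies beyond the bases shown). That of Fgfr4 held CATTTG at -112 and CAGTTG at -10, that of Spry2 CACTTG at -188, and that of Dusp6 CAGTTG at -191. Of 32851 mouse promoter windows of this length, 72.3% held at least 1 E-box and 17.6% held 3 or more. The E-box CATCTG, whose other strand is the match at -2 of Fgfr2, was in 17.2% of those windows and in none of the other 3 shown. Among the promoters not shown, 1 of Etv5 also held it, as CAGATG at -224. The 4 windows shown held neither CATATG, found in 3.91% of all windows, nor the E-box with CC at its centre, CACCTG, found in 20.2% (each on either strand). These matches describe letters in a window, and binding was not measured.

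Several of the 10 genes differed between the lines, and in different directions. Against the parental line, Spry2 was lower in all 4 dimer groups. Fgfr2 was higher by most in the 3 groups labelled as E-protein dimers (TCF3, TCF4 and TCF12 groups below), and by less in the others. Fgfr3 and Fgfr4 were higher in both monomer groups and in the TCF3-labelled libraries, while Fgfr1 was lower in both monomer groups and higher in 3 of the dimer groups. Dusp6 was higher in those same 3 dimer groups, and Spry4 was higher in 4 of the 6 groups. By edgeR's quasi-likelihood test with Benjamini-Hochberg adjustment over all 14311 genes (adjusted p under 0.05, called passing below), 4 of the 10 genes passed in induced monomer samples, where 20% of all tested genes passed. In the uninduced monomer line 5 passed, against 19.9% of all genes. The homodimer line had 5 passing against 8.84% of all genes, and the TCF4 dimer line 5 against 12.9%. There were 6 in the TCF3-labelled libraries against 28.3% of all genes, and 6 in the TCF12-labelled libraries against 27%. The share passing among the 10 was above that of all genes in each of these 6 comparisons. This is a description only, because the genes were chosen with earlier results of these data known. In a fit of the parental and TCF12-labelled samples alone, Fgfr1, Dusp6, Etv4 and Etv5 did not pass in that group (adjusted p 0.269, 0.0548, 0.233 and 0.265). These 6 comparisons share the parental samples. The median log2 fold change of the 10 genes lay between -0.17 and 0.29, and that of all genes between 5.6e-04 and 0.0244.

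With sample 1 of the TCF12-labelled libraries left out, 14423 genes were tested and more passed in each comparison with the parental line. Of the 10 genes, 5 then passed in induced monomer samples (35.2% of all genes), 8 in uninduced monomer samples (36.8%) and 8 in homodimer samples (20.4%). There were 7 in the TCF3-labelled libraries (46.5%), 6 in TCF4 dimer samples (28.1%) and 6 in the TCF12-labelled libraries (30.3%). The genes gained were Fgfr2, Etv4, Etv5 and Dusp6, and no call of the 10 genes was lost in any comparison.

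**Figure D1:**
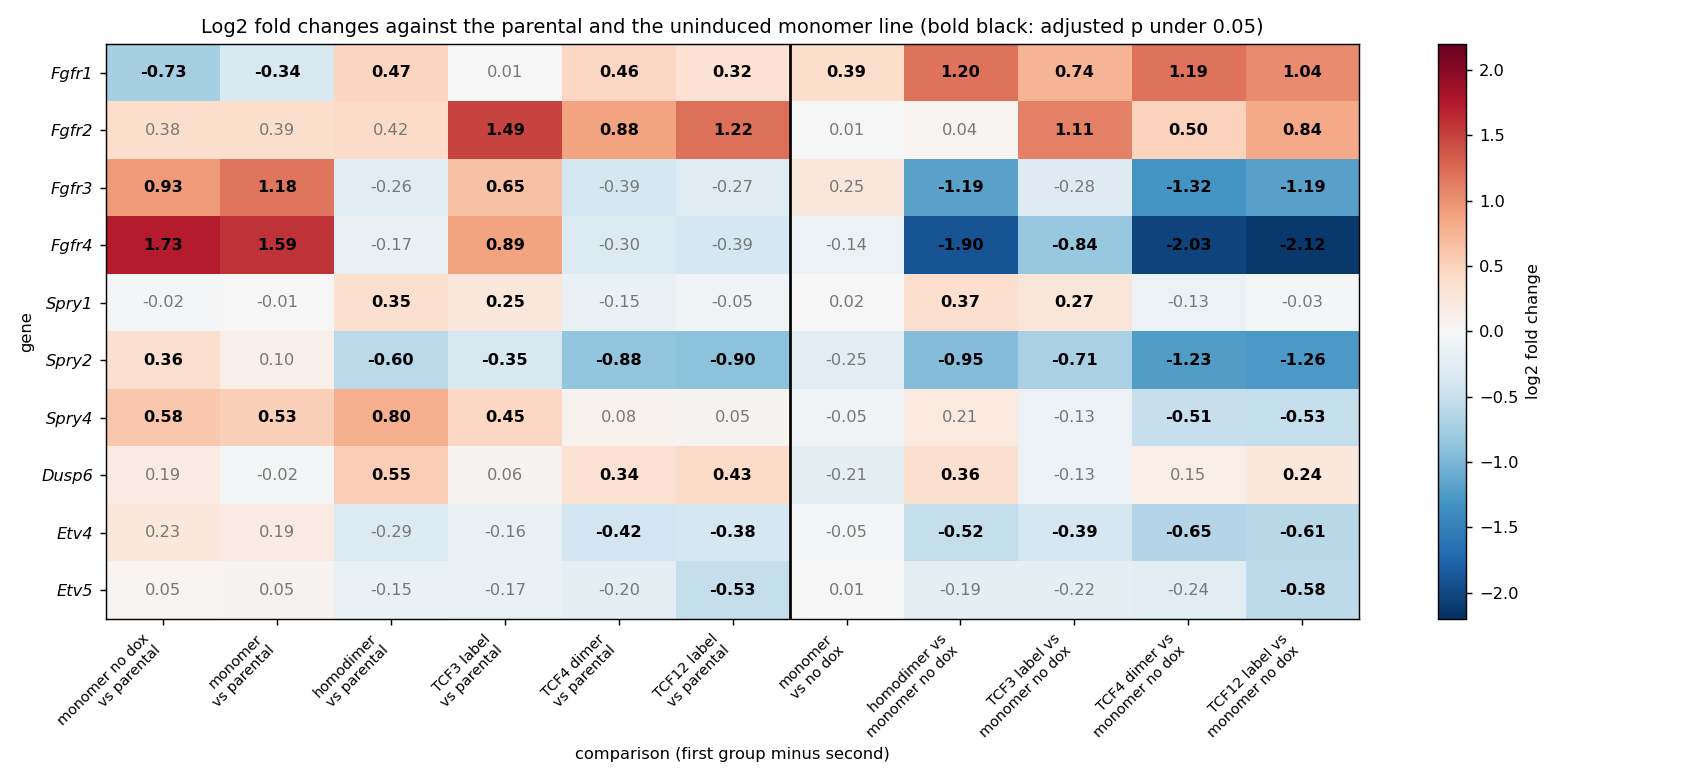
Log2 fold changes of the 10 genes (rows) in 11 comparisons (columns, first group minus second), coloured from blue (lower) to red (higher), with values in bold black where the adjusted p is under 0.05. The left block uses the parental line as reference and the right block the uninduced monomer line. Fgfr1 is red and Fgfr3 and Fgfr4 are mostly blue in the right block, where Fgfr4 reaches -2.12.

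Fgfr1 (chr8:25518759-25575718, forward strand, GRCm38) encodes the main FGF receptor of the epiblast. Its level in samples 1 to 3 was 185, 187 and 185 CPM in parental samples, 119, 106 and 111 in uninduced monomer samples and 154, 145 and 143 in induced monomer samples. It was 278, 244 and 250.2 CPM in homodimer samples and 249, 247 and 271 in TCF4 dimer samples. The TCF3-labelled libraries had 197, 181 and 185 CPM and the TCF12-labelled ones 190.4, 248 and 254. Both monomer groups lay below all other samples, and the homodimer and TCF4 dimer samples lay above all parental samples. Relative to parental samples its log2 fold change was -0.73 ± 0.09 (SE, as for all fold changes here; adjusted p = 9.6e-06) in uninduced and -0.34 ± 0.09 (adjusted p = 0.0112) in induced monomer samples. In the homodimer line it was 0.47 ± 0.09 (adjusted p = 0.00156) and in TCF4 dimer samples 0.46 ± 0.09 (adjusted p = 0.00138). For the TCF12-labelled libraries it was 0.32 ± 0.09 (adjusted p = 0.0144) with sample 1 and 0.43 ± 0.06 (adjusted p = 6.0e-07) without it, and the call was lost when sample 2 (adjusted p = 0.0650) or sample 3 (0.0598) was left out instead, and with scaling by library size only (0.116). No difference was detected in the TCF3-labelled libraries, at 0.01 ± 0.09. Against the parental line, genes on chromosome 8 had median log2 fold changes of -0.101 in uninduced and -0.0982 in induced monomer samples. The medians were 0.0584 in homodimer samples, -0.0683 in the TCF3-labelled libraries, 0.072 in TCF4 dimer samples and 0.126 in the TCF12-labelled libraries. Their part in the Fgfr1 values was not tested. RNA of whole embryoid bodies was measured, so for every gene here fewer cells of a type and less RNA per cell cannot be told apart.

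**Figure D2:**
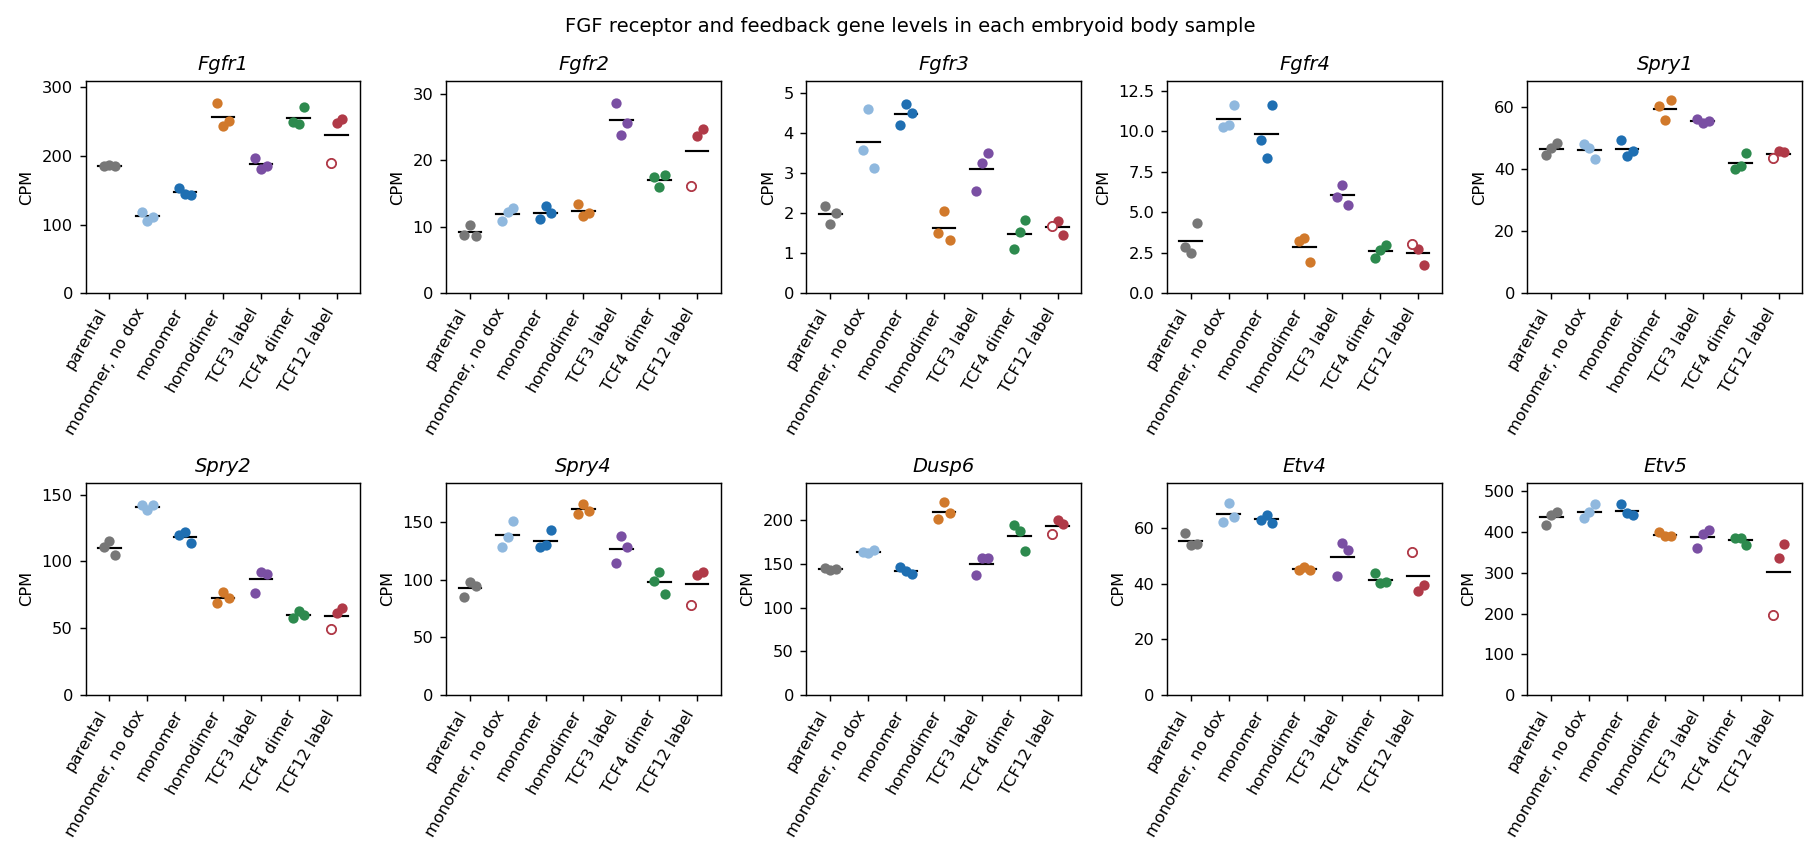
Level in CPM (vertical axes, linear and starting at 0) of each of the 10 genes in every sample of the 7 groups (horizontal axes), with 1 point per sample and a line at the group mean. The open circle is sample 1 of the TCF12-labelled libraries, which for Etv5 lies at 197 CPM, below every other sample.

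Fgfr2 (chr7:130162451-130266808, reverse strand) encodes a receptor known for its part in limb bud and epithelial-mesenchymal signalling. Its level was 8.83, 10.3 and 8.68 CPM in parental samples, 10.9, 12.2 and 12.8 in uninduced monomer samples, 11.2, 13.2 and 12.04 in induced monomer samples and 13.5, 11.7 and 12.1 in homodimer samples. It was 28.5, 23.7 and 25.6 CPM in the TCF3-labelled libraries, 17.5, 15.9 and 17.8 in TCF4 dimer samples and 16.1, 23.5 and 24.7 in the TCF12-labelled libraries. All 9 samples of the 3 E-protein-labelled groups lay above all 12 other samples, the parental samples lay below all others, and the monomer and homodimer groups overlapped between these. The log2 fold change against the parental line was 1.49 ± 0.14 (adjusted p = 1.5e-07), 0.88 ± 0.14 (adjusted p = 2.0e-04) and 1.22 ± 0.14 (adjusted p = 3.0e-06) in the TCF3, TCF4 and TCF12 groups in that order. In homodimer, induced and uninduced monomer samples it was 0.42, 0.39 and 0.38 and did not pass (adjusted p = 0.0875, 0.0771 and 0.0851). Without sample 1 of the TCF12-labelled libraries these 3 groups passed, at 0.42 (0.00839), 0.38 (0.0127) and 0.38 (0.0127). They also passed in fits of the compared groups alone (0.0126, 0.0183 and 0.0281). The 3 E-protein-labelled groups together were above the homodimer line by 0.77 ± 0.11 (adjusted p = 9.6e-05). The homodimer line was not distinguishable from the induced monomer line (0.03 ± 0.14, adjusted p = 0.92). A part of 3.04% of its exon bases in GENCODE M21 also belongs to Ctbp2. Markers of mesenchyme and later mesoderm were also higher in the 3 E-protein-labelled groups. Of 13 tested of 16 listed, 11, 10 and 11 were higher in the TCF3, TCF4 and TCF12 groups, against 3 in homodimer, 2 in induced and 1 in uninduced monomer samples. The shares of all genes that passed were 28.3%, 12.9%, 27%, 8.84%, 20% and 19.9% in the same order. Their summed level was 684 to 831 CPM, 464 to 482 CPM and 590.2 to 620.5 CPM in those groups and 350.2 to 419 CPM in parental samples. It was 463 to 489 CPM in induced and 431 to 467 CPM in uninduced monomer samples, overlapping the TCF4 group, and 383 to 462 CPM in homodimer samples. Their part in the Fgfr2 result was not tested.

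Fgfr4 (chr13:55152818-55168759, forward strand) encodes a receptor known from primitive endoderm and liver. Its level was 10.2, 10.3 and 11.6 CPM in uninduced and 9.44, 8.33 and 11.6 CPM in induced monomer samples. It was 5.95, 6.71 and 5.45 CPM in the TCF3-labelled libraries and 2.83, 2.49 and 4.34 in parental samples. The homodimer line had 3.24, 3.41 and 1.95 CPM, the TCF4 dimer line 2.202, 2.65 and 2.98 and the TCF12-labelled libraries 3.04, 2.71 and 1.78. The 6 monomer-line samples were highest, the 3 TCF3-labelled libraries came next without overlap, and the other 4 groups overlapped one another. Fgfr4 exceeded the parental level by 1.73 ± 0.22 (adjusted p = 1.1e-05) in uninduced monomer samples, by 1.59 ± 0.22 (adjusted p = 2.5e-05) in the induced ones and by 0.89 ± 0.22 (adjusted p = 0.00525) in the TCF3-labelled libraries. Against the uninduced monomer line the TCF3-labelled libraries were lower, at -0.84 ± 0.20 (adjusted p = 0.00299), so the direction in this group turned with the reference. The homodimer, TCF4 and TCF12 groups differed from the uninduced monomer line by -1.90, -2.03 and -2.12, with adjusted p of at most 2.7e-06.

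Fgfr3 (chr5:33721724-33737068, forward strand), known for its role in growing cartilage, had the lowest counts of the 10 genes, with 13 counts in its lowest sample. Its level was 3.58, 4.6 and 3.13 CPM in uninduced monomer samples, 4.21, 4.73 and 4.51 in the induced ones, 2.56, 3.27 and 3.50 in the TCF3-labelled libraries and 2.18, 1.73 and 2.02 in parental samples. The homodimer line had 1.51, 2.06 and 1.34 CPM, the TCF4 dimer line 1.10, 1.54 and 1.82 and the TCF12-labelled libraries 1.68, 1.81 and 1.45. As for Fgfr4, the monomer groups and the TCF3-labelled libraries lay above the other 4 groups. Here the uninduced monomer samples overlapped both the induced ones and the TCF3-labelled libraries. The induced monomer samples lay above the TCF3-labelled libraries without overlap. The log2 fold changes of Fgfr3 from the parental level were 0.93 ± 0.22 (uninduced monomer line, adjusted p = 0.00433), 1.18 ± 0.21 (induced monomer line, adjusted p = 4.0e-04) and 0.65 ± 0.21 (TCF3 group, adjusted p = 0.0282). The call in the TCF3 group was lost with DESeq2 (adjusted p = 0.0751), without a filter on low counts (0.0824) and when parental sample 2 or 3 or TCF3-labelled sample 2 or 3 was left out (0.0725 to 0.118). The uninduced monomer call was lost without sample 2 of that line (0.0577). The TCF3 group differed from the uninduced monomer line by -0.28 ± 0.20 (adjusted p = 0.319). In GENCODE M21, 13.9% of its exon bases overlap G630022F23Rik on the opposite strand, and since the use of strand in counting is not given in the sources used here, their reads cannot be told apart.

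Markers of primitive and extra-embryonic endoderm moved with Fgfr3 and Fgfr4. Of 16 markers, all tested, 15 were higher than in parental samples in uninduced monomer samples, 15 in the induced ones and 15 in the TCF3-labelled libraries, where 1 was lower. That 1 was Foxa2, which is also on the primitive streak list, so the counts of the 2 lists share a gene. Of all genes, 19.9%, 20% and 28.3% passed in these groups in that order. Lower levels were found for 11 markers in homodimer samples, 13 in TCF4 dimer samples and 11 in the TCF12-labelled libraries, with 2 higher in the last (8.84%, 12.9% and 27% of all genes passed). Their summed level was 1357 to 1378 CPM in parental samples, 4444 to 5137 and 4346 to 4762 CPM in uninduced and induced monomer samples and 2884 to 3449 CPM in the TCF3-labelled libraries. In the homodimer, TCF4 and TCF12 groups it lay between 922 and 1063 CPM. No marker was at 0 in a whole group, and Gata4, an endoderm transcription factor gene, was at 21.5 ± 0.861 CPM in the parental and 81.7 ± 7.19 CPM in uninduced monomer samples. The part of these markers in the Fgfr3 and Fgfr4 results was not tested.

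**Figure D3:**
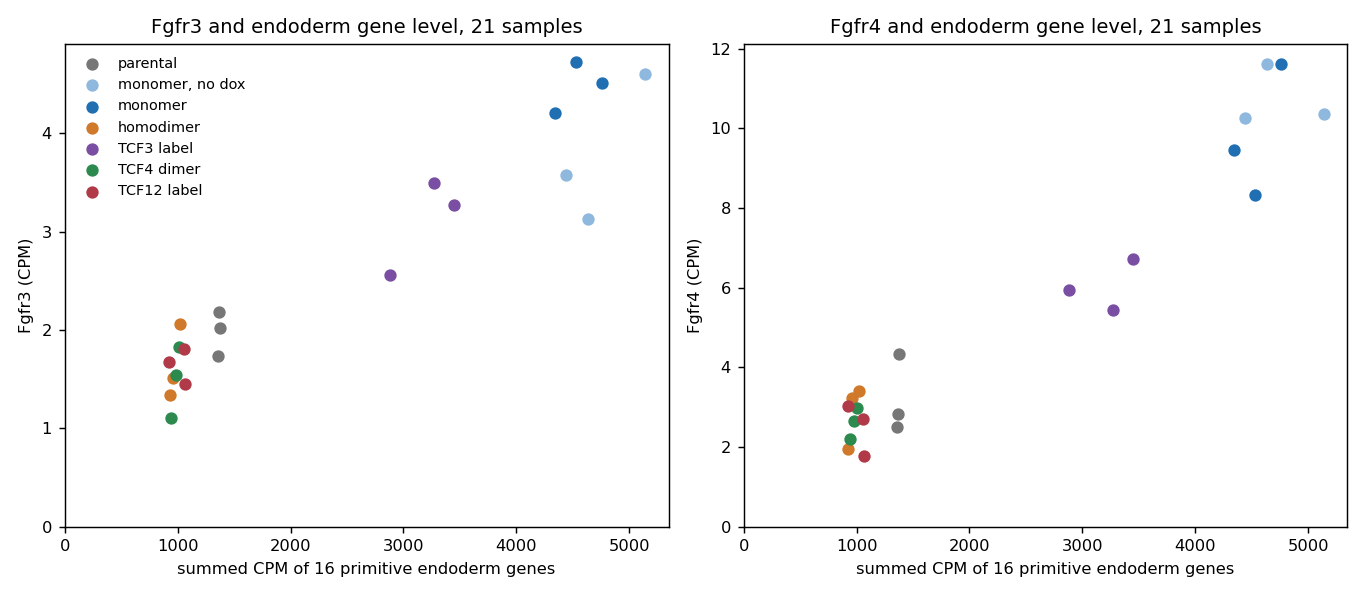
Fgfr3 (left) and Fgfr4 (right) in CPM (vertical axes) against the summed CPM of 16 primitive endoderm markers (horizontal axes) in each of the 21 samples, coloured by group. The uninduced and induced monomer samples lie at the upper right (4346 to 5137 CPM of markers), the TCF3-labelled libraries between, and the other 4 groups at the lower left.

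To compare levels between the receptors, CPM were divided by the length of each gene's merged exons (GENCODE M21). On this scale Fgfr1 made up 90.0 ± 0.997% of the summed receptor level in parental samples, 70.6 ± 2.11% in uninduced and 76.5 ± 2.24% in induced monomer samples, and 92.1 ± 0.881% in homodimer samples. Its share was 90.9 ± 0.215% in TCF4 dimer samples, 80.3 ± 0.515% in the TCF3-labelled libraries and 88.5 ± 0.677% in the TCF12-labelled ones. Fgfr1 was thus the most abundant receptor mRNA per length in every group, and its share was lowest in the monomer line. Fgfr4 was the second receptor there, at 18.9 ± 1.34% uninduced and 14.2 ± 2.30% induced, against 4.35 ± 1.28% in parental samples. Fgfr2 held the second place in homodimer samples, at 4.25 ± 0.0754%, and in the TCF3, TCF4 and TCF12 groups, at 10.6 ± 0.565%, 5.80 ± 0.265% and 7.80 ± 0.632%. The summed level was 16.1 ± 0.531 CPM per kb in uninduced monomer samples, 20.9 ± 0.207 in parental samples and 28.5 ± 1.53 in TCF4 dimer samples.

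**Figure D4:**
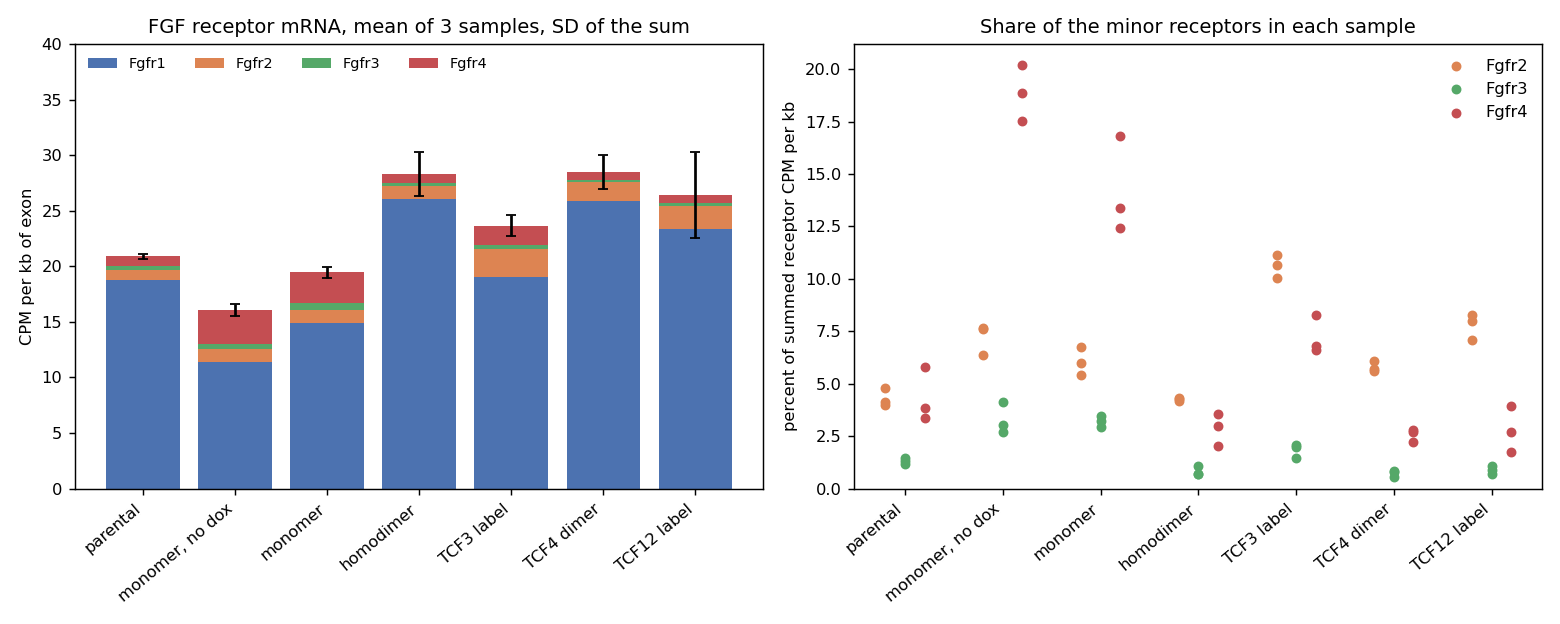
Left, level per length (CPM per kb of exon, linear axis from 0) of the 4 FGF receptors stacked for each group, as means of 3 samples with the SD of the sum as error bar. Right, the share of Fgfr2, Fgfr3 and Fgfr4 in the summed receptor level (percent) in each sample, where Fgfr4 reaches 20.2% in uninduced monomer samples.

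Spry2 (chr14:105891947-105896819, reverse strand) encodes a Sprouty inhibitor of receptor tyrosine kinase signalling. Its level was 111, 115 and 105 CPM in parental samples, 143, 139 and 142 in uninduced and 119.8, 122 and 114 in induced monomer samples. It was 69.0, 76.8 and 72.5 CPM in homodimer samples, 76.5, 92.5 and 90.7 in the TCF3-labelled libraries, 57.6, 63.2 and 59.6 in TCF4 dimer samples and 49.4, 61.8 and 65.4 in the TCF12-labelled libraries. All 12 dimer samples lay below all 9 parental and monomer samples. Spry2 fell from the parental level by 0.60 ± 0.0918 on the log2 scale in homodimer samples (adjusted p = 1.8e-04) and by 0.88 in TCF4 dimer samples (adjusted p = 1.5e-06). In the TCF12-labelled libraries it fell by 0.90 (adjusted p = 6.4e-07), and by 0.80 without sample 1. The smallest fall, 0.35 (adjusted p = 0.00678), was in the TCF3-labelled libraries, and its call was lost without their sample 1 (adjusted p = 0.0745). All 4 dimer groups were also lower in Spry2 than the uninduced monomer line, from -0.71 (TCF3 group) to -1.26 (TCF12 group), with adjusted p of at most 8.9e-06. The uninduced monomer line was above the parental line by 0.36 ± 0.09 (adjusted p = 0.00835), a call lost when counts were scaled by library size only (0.102).

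Etv4 (chr11:101769747-101785310, reverse strand) and Etv5 (chr16:22381313-22439570, reverse strand) encode PEA3-family ETS factors. Etv4 was at 58.1, 54.0 and 54.2 CPM in parental samples, 62.0, 69.0 and 64.1 in uninduced and 62.8, 64.6 and 61.7 in induced monomer samples. The dimer groups had 44.8, 46.1 and 44.8 (homodimer), 42.7, 54.5 and 52.0 (TCF3), 43.8, 40.2 and 40.4 (TCF4) and 51.4, 37.3 and 39.5 CPM (TCF12). The monomer samples were highest, and the 12 dimer samples lay below all 6 of them. Etv4 was lower than in uninduced monomer samples in homodimer samples (-0.52 ± 0.10, adjusted p = 9.6e-04), the TCF3 group (-0.39, 0.00762), the TCF4 dimer line (-0.65, 7.1e-05) and the TCF12 group (-0.61, 1.3e-04). Against the parental line it was lower in TCF4 dimer samples (-0.42 ± 0.10, adjusted p = 0.00989) and in the TCF12-labelled libraries (-0.38 ± 0.10, adjusted p = 0.0118). The latter was -0.53 (adjusted p = 5.0e-06) without sample 1 of that group and missed the threshold without parental sample 1 (adjusted p = 0.0505). Without sample 1 of the TCF12-labelled libraries Etv4 was also lower in homodimer samples (-0.29, adjusted p = 0.0037, from 0.0966). It was then higher in uninduced monomer samples (0.23, adjusted p = 0.0113, from 0.134). In the TCF3 group, where Etv4 was -0.16 ± 0.10 against the parental line and did not pass, genes of chromosome 11 had a median log2 fold change of 0.202. Against the uninduced monomer line, where Etv4 passed in this group, that median was 0.191. Its part in these values was not tested.

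Etv5 had the highest level per length of the 10 genes, 106 ± 3.95 CPM per kb of exon in parental samples. Its CPM stood at 418, 442 and 449 CPM in parental samples, 434, 448 and 469 in uninduced and 469, 447 and 442 in induced monomer samples. The dimer groups had 401, 390.3 and 389.8 (homodimer), 361, 396 and 405 (TCF3), 387, 385 and 369 (TCF4) and 197, 337 and 370.2 CPM (TCF12). All 12 dimer samples lay below all 9 other samples. Only the TCF12-labelled libraries passed against the parental line (-0.53 ± 0.14, adjusted p = 0.00914), and the value was -0.30 ± 0.06 (adjusted p = 6.9e-05) without their sample 1. With that sample left out the other 3 dimer groups passed as well, at -0.15 (homodimer, adjusted p = 0.034), -0.18 (TCF3, 0.0031) and -0.20 (TCF4, 0.00236). These 3 groups then also passed against the uninduced (-0.19, -0.22 and -0.24, adjusted p of at most 0.00306) and the induced monomer line (-0.19, -0.22 and -0.24, at most 0.00326). Markers of naive pluripotency, of which all 11 listed were tested, were summed at 411 to 469 CPM in parental samples, 643 to 674 in uninduced monomer samples and 193 to 216 CPM in the TCF12-labelled libraries. Of these markers, 8 were higher and 1 lower than in parental samples in uninduced monomer samples, and 7 and 2 in induced ones. The numbers were 3 and 2 in homodimer samples, 6 and 2 in the TCF3, 0 and 8 in the TCF4 and 0 and 9 in the TCF12 group. Of all genes, 19.9%, 20%, 8.84%, 28.3%, 12.9% and 27% passed in the same order. The summed level of these markers was 504 to 578 CPM in induced monomer samples and 344 to 381 in homodimer samples. In the TCF3 group it was 354 to 451 CPM and in the TCF4 group 226 to 269 CPM. Their part in the Spry2, Etv4 and Etv5 values was not tested.

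Dusp6 (chr10:99263231-99267489, forward strand) was at 145, 143 and 144 CPM in parental samples, 164, 162 and 166 in uninduced and 146, 142 and 138 in induced monomer samples. The homodimer line had 201, 221 and 208 CPM and the TCF4 dimer line 194, 187 and 165. It was 137, 157 and 156 CPM in the TCF3-labelled libraries and 184, 200 and 196 in the TCF12-labelled ones. The homodimer samples were above all others, and the TCF3 group overlapped the parental and induced monomer groups. Against the parental line Dusp6 was higher in homodimer samples (0.55 ± 0.07, adjusted p = 2.4e-05), the TCF4 dimer line (0.34 ± 0.07, adjusted p = 0.00227) and the TCF12-labelled libraries (0.43 ± 0.07, adjusted p = 1.7e-04). Without sample 1 of the TCF12-labelled libraries the uninduced monomer line passed as well, at 0.18 (adjusted p = 0.0125, from 0.0701). With the uninduced monomer line as reference the TCF4 difference was 0.15 ± 0.07 and did not pass (adjusted p = 0.105, but 0.0188 without sample 1 of the TCF12-labelled libraries), while those of the homodimer (0.36, 8.3e-04) and TCF12 groups (0.24, 0.0114) did. Dusp6, which like Spry2 is known as an ERK response gene, was thus higher than in parental samples in 3 groups in which Spry2 was lower.

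Spry4 (chr18:38586247-38601347, reverse strand) encodes a Sprouty inhibitor. It was at 84.9, 98.4 and 94.7 CPM in parental samples, 129, 137 and 151 in uninduced and 128, 131 and 143 in induced monomer samples. The dimer groups had 157, 166 and 160.0 (homodimer), 114, 138 and 129 (TCF3), 98.9, 107 and 87.5 (TCF4) and 78.0, 104 and 107 CPM (TCF12). The homodimer samples were highest, the monomer and TCF3 groups overlapped below them, and the TCF4 and TCF12 groups overlapped the parental line. Against the parental line Spry4 was higher in homodimer samples (0.80 ± 0.11, adjusted p = 5.1e-05), the uninduced monomer line (0.58 ± 0.11, adjusted p = 7.0e-04), the induced monomer line (0.53, 0.00144) and the TCF3 group (0.45, 0.00373). Against the uninduced monomer line neither the homodimer (0.21, adjusted p = 0.188) nor the TCF3 group (-0.13, 0.408) passed. Without sample 1 of the TCF12-labelled libraries the homodimer did, at 0.22 (adjusted p = 0.0132). The TCF4 and TCF12 groups were lower than that line, at -0.51 (0.00121) and -0.53 (7.7e-04).

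Spry1 (chr3:37639947-37644599, forward strand) varied least, its highest group mean being 1.41 times the lowest. It was at 60.2, 55.8 and 62.0 CPM in homodimer samples and 56.0, 54.7 and 55.4 in the TCF3-labelled libraries. The other groups overlapped one another, at 46.5 ± 1.94 CPM in parental samples, 45.9 ± 2.48 and 46.4 ± 2.72 in uninduced and induced monomer samples, 42.0 ± 2.75 in TCF4 dimer samples and 44.9 ± 1.24 in the TCF12-labelled libraries. Both the homodimer line (0.35 ± 0.07, adjusted p = 0.00284) and the TCF3 group (0.25 ± 0.07, adjusted p = 0.0122) were above the parental line. The TCF3 call was lost without a filter on low counts (adjusted p = 0.114) and without parental sample 1 (0.0623). In GENCODE M21, 24.4% of its exon bases overlap Gm42922 on the opposite strand, whose reads cannot be told apart from those of Spry1 without the use of strand.

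Between the induced and the uninduced monomer line 1 of the 10 genes passed, where 2% of all genes did. This was Fgfr1, higher by 0.39 ± 0.09 (adjusted p = 0.0265), and the call was lost when any of 5 of the 6 samples of these groups was left out, the exception being uninduced monomer sample 1 (adjusted p 0.0654 to 0.151 in the 5) and when counts were scaled by library size only (0.0976). Without sample 1 of the TCF12-labelled libraries 3 passed, against 6.17% of all genes. These were Fgfr1 (0.39, adjusted p = 1.2e-05), Spry2 (-0.25, 0.00648) and Dusp6 (-0.21, 0.0211). In the fit of all samples Fgfr3, Fgfr4 and Spry4 passed above the parental line in both monomer groups. Their induced-to-uninduced differences were 0.25 ± 0.19, -0.14 ± 0.19 and -0.05 ± 0.11 (adjusted p = 0.875, 0.999 and 0.9998). For Fgfr2, which passed in both groups only without sample 1 of the TCF12-labelled libraries or in fits of the compared groups alone, it was 0.0084 ± 0.15.

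Each dimer was also compared with the induced monomer. In the homodimer line 7 of the 10 genes passed (18.5% of all genes), in the TCF3-labelled libraries 6 (22.1%), in TCF4 dimer samples 8 (27.4%) and in the TCF12-labelled libraries 9 (33.5%). Fgfr1 was higher in all 4 groups, from 0.35 (TCF3) to 0.81 (homodimer). Fgfr4, Spry2 and Etv4 were lower in all 4, with Fgfr4 from -0.70 (TCF3, adjusted p = 0.0142) to -1.98 (TCF12, adjusted p = 1.3e-06). The TCF3 call of Fgfr4 was lost without induced monomer sample 3 (adjusted p = 0.0912) or TCF3-labelled sample 1 (0.0574) or 3 (0.0703). That of Etv4 was lost without induced monomer sample 1 (0.0528) or 2 (0.0684) or TCF3-labelled sample 1 (0.168), and that of Spry1 without induced monomer sample 2 (0.0807) or 3 (0.0574). Without a filter on low counts the calls of Etv4 (0.0559) and Spry1 (0.123) in this group were lost too. In a fit of the TCF12-labelled and induced monomer samples alone, Spry4, Etv4 and Etv5 did not pass (adjusted p = 0.0933, 0.0556 and 0.169). Besides Etv5, leaving out sample 1 of the TCF12-labelled libraries added Fgfr3 in the TCF3 group (-0.53, adjusted p = 0.033, from 0.0522) and Spry4 in homodimer samples (0.28, 0.00212, from 0.104) against the induced monomer. Against the uninduced monomer line 7 genes passed in homodimer samples (22.8% of all genes), 6 in the TCF3-labelled libraries (28.9%), 7 in TCF4 dimer samples (32.3%) and 9 in the TCF12-labelled libraries (37%). Here Fgfr1 was higher by 1.199 ± 0.09 in homodimer samples, 0.74 ± 0.09 in the TCF3 group, 1.19 ± 0.09 in TCF4 dimer samples and 1.04 ± 0.09 in the TCF12 group, with adjusted p of at most 4.6e-06. Genes on chromosome 8 had median log2 fold changes of 0.162, 0.0221, 0.205 and 0.231 in these comparisons in that order. Their part in the Fgfr1 values was not tested.

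The mean of the 3 E-protein-labelled groups was set against the homodimer line, where 4 of the 10 genes passed and 14% of all genes did. Fgfr2 was higher in the 3 groups labelled as E-protein dimers, as given above. Spry4 was lower (-0.60 ± 0.09, adjusted p = 6.1e-05), and all 9 E-protein-labelled samples lay below the 3 homodimer samples. Dusp6 (-0.27 ± 0.06, adjusted p = 0.00226) was lower likewise, without overlap. Spry1 was lower in the mean (-0.33 ± 0.06, adjusted p = 4.0e-04) although the TCF3 group overlapped the homodimer line. Fgfr1 was at -0.21 ± 0.07 and did not pass (adjusted p = 0.066), but passed without sample 1 of the TCF12-labelled libraries (-0.17, 0.00266). The homodimer line had the highest levels of Spry1, Spry4 and Dusp6 among the 7 groups.

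Other genes of the pathway were taken from lists by role. Of 18 FGF ligand genes 8 were expressed enough to be tested, and Fgf8 and Fgf5 were lower than in parental samples in every other group. Fgf8, a ligand of the primitive streak, was at 25.4 ± 2.58 CPM in parental samples, 3.74 ± 0.504 in uninduced monomer samples and 0.707 ± 0.245 in the TCF3-labelled libraries. Fgf5, a ligand of the epiblast, was at 173 ± 6.12 CPM in parental samples and lowest at 48.6 ± 6.89 in the TCF3 group. Fgf4 was higher in uninduced monomer samples (129.7 ± 9.56 against 51.7 ± 2.10 CPM, log2 fold change 1.33 ± 0.08, adjusted p = 1.1e-09), and fell with induction of the monomer to 91.6 ± 3.24 CPM (-0.50 ± 0.08, adjusted p = 7.1e-04). Fgf3 was higher than in parental samples in all 6 other groups, from 0.86 (TCF4) to 1.68 (uninduced monomer). Fgf10, a mesenchymal ligand of the receptor made by Fgfr2, was above the parental line in the same 3 groups as Fgfr4. It was at 17.9 ± 2.41 CPM in uninduced and 17.4 ± 1.38 in induced monomer samples, 10.3 ± 1.34 in the TCF3 group, 6.19 ± 1.68 in parental samples and 2.23 ± 0.23 in TCF4 dimer samples. The median log2 fold change of the 8 ligands against the parental line was 0.56 in uninduced monomer samples and -0.49 in the TCF12 group.

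Of 20 co-receptor and heparan sulphate genes 19 were tested. In the TCF3-labelled libraries 11 were higher than in parental samples and 1 lower, against 2 and 4 in homodimer samples, 3 and 3 in TCF4 dimer samples, and 6 and 4 in the TCF12 group. Of all genes, 28.3%, 8.84%, 12.9% and 27% passed in these groups in that order, and the list's median log2 fold change was 0.46, -0.10, 0.12 and 0.10. Klb, which encodes the beta-Klotho co-receptor of endocrine FGFs, was at 28.8 ± 2.79 CPM in uninduced and 26.5 ± 0.987 in induced monomer samples and 13.2 ± 1.72 in the TCF3 group. It was at 5.68 ± 1.46 CPM in parental samples and 3.32 ± 0.506, 2.05 ± 0.672 and 1.46 ± 0.476 in the homodimer, TCF4 and TCF12 groups, the same high and low groups as Fgfr4. Flrt3, which encodes a membrane protein that binds FGF receptors, was at 64.0 ± 5.92 CPM in uninduced monomer samples against 17.3 ± 1.14 in parental samples (adjusted p = 1.3e-07). Flrt2 was higher in the TCF12 group (1.082 ± 0.33, adjusted p = 0.0201) and in the TCF3 group (8.09 ± 1.12 against 2.86 ± 0.701 CPM, log2 fold change 1.50 ± 0.32, adjusted p = 0.0013).

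The adaptors and kinases between the receptors and ERK form the next list. Of 22 tested, the number passing against the parental line was 2 in homodimer samples and 7 in the TCF12 group, the lowest and highest of the 6 groups, where 8.84% and 27% of all genes passed. Their median log2 fold changes lay between -0.04 and 0.06. Sos2, a RAS activator gene, was higher in the TCF3 group (0.86 ± 0.20, adjusted p = 0.00256), the TCF4 dimer line (0.76 ± 0.20, adjusted p = 0.0129) and the TCF12 group (0.69 ± 0.20, adjusted p = 0.0153).

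Of 24 tested genes among 27 other ERK feedback or response genes, the number higher and lower than in parental samples was 6 and 4 in induced monomer samples, 4 and 3 in homodimer samples, 5 and 3 in the TCF3 group, 4 and 3 in TCF4 dimer samples, and 5 and 5 in the TCF12 group. The shares of all genes that passed in these groups were 20%, 8.84%, 28.3%, 12.9% and 27%. Like the 10 genes, they moved in both directions in each group. Spred1, a Sprouty-related inhibitor gene, was higher in the 3 E-protein-labelled groups, at 159 ± 25.6, 91.6 ± 12.9 and 112 ± 18.6 CPM against 55.4 ± 4.54 in parental samples and 57.0 ± 3.14 in homodimer samples. This is the grouping seen for Fgfr2, and the opposite direction to Spry2. Il17rd, which encodes the FGF antagonist Sef, was lower in uninduced monomer samples (80.1 ± 8.17 against 167 ± 16.0 CPM in parental samples, adjusted p = 7.9e-04). Dusp7, a phosphatase gene of the same family as Dusp6, was higher with Dusp6 in the homodimer (0.44 ± 0.11), TCF4 (0.55 ± 0.11) and TCF12 groups (0.44 ± 0.11), with adjusted p of at most 0.0134. Among 19 other receptor tyrosine kinase genes, 10 were lower and 2 higher in induced monomer samples (20% of all genes passed), the latter being Pdgfra (44.2 ± 2.27 against 9.38 ± 0.863 CPM) and Ddr2. The numbers lower and higher were 7 and 2 in uninduced monomer samples, 3 and 1 in homodimer samples, 5 and 5 in the TCF3 group, 4 and 2 in TCF4 dimer samples and 6 and 4 in the TCF12 group (19.9%, 8.84%, 28.3%, 12.9% and 27% of all genes). Kdr and Pdgfrb were higher in the 3 E-protein-labelled groups, with Kdr at 15.4 ± 2.14 CPM in the TCF3 group against 2.17 ± 0.968 in parental samples. Pdgfra is also on the endoderm marker list and Kdr on the mesenchyme marker list, so the counts of these lists share genes.

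Over the 21 samples, each gene's log2(CPM + 0.5) was correlated with that of 13361 tested genes whose mean reached 1 CPM. These correlations are a description: the samples share groups and libraries. The gene most like Fgfr1 was Plekhg2 (Pearson's r = 0.966), followed by Dbn1 and Zfyve9. For Fgfr2 they were Greb1l (0.955), Fmnl3 and Ebf2, and for Fgfr4 Npl (0.962), Fam151a and Ctsl. The 3 nearest to Fgfr3 were Gata4 (0.957), Sparc (0.951) and Hs3st1, the first and second of which are on the endoderm marker list. Those nearest to Spry2 were Plk2 (0.976), Rhpn2 and Epha2, and to Etv4 Tnfrsf12a (0.955), Arhgap8 and Fam129b. Etv5 was nearest to Gnptab (0.981), Etl4 and Ralgapa2, Spry4 to Pik3cb (0.903), Arhgef3 and Nid2. Lower values were found for Spry1, nearest to Pde2a (0.851), Crocc2 and Sec14l1, and for Dusp6, nearest to Igsf9 (0.842), Zfp207 and Nuak2. Among the 10 genes themselves, the closest pair was Fgfr3 and Fgfr4 (r = 0.927), then Spry2 and Etv4 (0.874). The most opposed pairs were Fgfr1 with Etv4 (-0.911), with Fgfr4 (-0.875) and with Spry2 (-0.861). Spry1 with Spry2 had r = -0.013, and Spry1 with Spry4 0.587.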

How the data were processed

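RNA was measured by sequencing of mRNA (TruSeq mRNA kit, per the labels' protocols) in 21 samples of 7 groups. The authors deposited whole-number read counts per gene symbol, with no normalization, in 1 table per sample. Per the submitters' processing notes, FastQC, TopHat2, HTSeq, mm10 and GRCm38 were used, and versions, annotation and strand setting are not given in the sources used here. Groups were taken from the labels. From the deposited counts, edgeR 4.0.16 (R 4.3.3, limma 3.58.1) with TMM factors and its filter on low counts (minimum count 10, minimum total 15) was fitted to all 21 samples, and its quasi-likelihood test was adjusted over all genes tested by Benjamini-Hochberg (threshold 0.05). Standard errors are the log2 fold change divided by the square root of the test's F. Total counts of 6648842 to 15999693 put 3 counts at 0.188 to 0.451 CPM. The genes and lists were chosen with earlier results of these data known, and their counts are descriptions. All 10 genes are named. From each list those named are, per comparison, up to 3 in each direction with the largest log2 fold change among genes that passed with groups that do not overlap and a mean of at least 1 CPM in the higher group. Values of Gata4, and of Sos2 and Flrt2 in the TCF12 group, were added after they were seen. The code of the fit was tested on simulated counts. Their spread was set near that found without sample 1 of the TCF12 group, with no outlying sample. That test therefore does not bear on the fit of all 21 samples. Alternatives were DESeq2 1.42.0, other scaling, other filters, fits of the compared groups alone, a replicate block, the uninduced monomer line as control and each sample left out. The symbols of 25 genes are altered to dates in 18 of the tables but not in those of the TCF12 group, which cannot be told apart from that group, and none of the 10 genes is among them.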

Additional observations from a re-analysis of the deposited data

How the results depend on the processing

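Of 120 values (10 genes in 12 comparisons) 66 passed, and 50 of these passed in the same direction in every alternative other than the exchange of control. In fits of the compared groups alone the number of the 10 genes that passed moved to 8 for the homodimer and 8 for the uninduced monomer, each from 5, relative to parental samples, to 2 in the TCF12-labelled libraries (from 6) and to 3 between the induced and uninduced monomer line (from 1). With scaling by library size only that last count was 0 by edgeR's test (1 of the 10 genes had an unadjusted p under 0.05), and DESeq2 gave 1. Leaving out 1 sample at a time gave 5 to 8 in homodimer samples, 0 to 3 between the induced and uninduced monomer line and 4 to 8 in uninduced monomer samples, the upper ends without sample 1 of the TCF12-labelled libraries. The cause was not tested.

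With the uninduced monomer line as control, the TCF3 group turned for Fgfr3 (-0.28), Fgfr4 (-0.84), Spry4 (-0.13) and Dusp6 (-0.13), and Spry4 turned in the TCF4 (-0.51) and TCF12 groups (-0.53). With scaling by library size only, Spry4 in the TCF12 group was -0.0041 and Etv5 in uninduced monomer samples -0.027 against the parental line. None of the following differences passed, and their sign turned when single samples were left out. Against the parental line the ranges were -0.063 to 0.0204 for Spry1 in induced and -0.0514 to 0.0162 in uninduced monomer samples, -0.32 to 0.11 for Fgfr4 in homodimer samples, -0.0051 to 0.0402 for Fgfr1 in the TCF3 group, and -0.0031 to 0.15 and -0.0398 to 0.18 for Spry4 in the TCF4 and TCF12 groups. Between the induced and uninduced monomer line they were -0.0559 to 0.0615 for Fgfr2, -0.0355 to 0.048 for Spry1, -0.11 to 0.0096 for Spry4 and -0.0225 to 0.0338 for Etv5. Against the induced monomer line they were -0.0174 to 0.11 for Fgfr2 in homodimer samples, -0.14 to 0.0083 for Spry4 in the TCF3 group and -0.0749 to 0.0084 for Spry1 in the TCF12 group. For Etv4 in the E-protein dimer groups against the homodimer line the range was -0.0827 to 0.0112.

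Over all genes, fits of the compared groups alone against the fit of all samples called 5106 against 2861 (induced monomer), 5029 against 2854 (uninduced monomer), 3113 against 1265 (homodimer), 6674 against 4057 (TCF3), 4010 against 1839 (TCF4) and 824 against 3864 genes (TCF12) relative to the parental line. For the induced against the uninduced monomer line the counts were 682 against 286, and for the dimers against the induced monomer 4813 against 2642 (homodimer), 5715 against 3162 (TCF3), 6346 against 3928 (TCF4) and 1516 against 4799 (TCF12). The E-protein dimers against the homodimer gave 1310 against 2007. The uninduced control gave 3259 (homodimer) and 4620 genes (TCF4). Scaling by library size only moved the split of higher and lower genes from 1504 and 1350 to 1164 and 1650 in uninduced monomer samples against the parental line, and from 1822 and 1340 to 2065 and 901 in the TCF3 group against the induced monomer. Against the uninduced monomer line it moved from 1602 and 1657 to 1887 and 1285 (homodimer), from 2247 and 1886 to 2690 and 1281 (TCF3) and from 2405 and 2215 to 2905 and 1722 (TCF4).

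Same-numbered samples of different groups showed no shared deviation on average. The mean correlation was 0.0214 over 63 pairs (-0.2215 to 0.344), against -0.0102 over 126 pairs with different numbers (-0.3596 to 0.2962). The samples were not treated as paired, and this check cannot tell whether the numbers stand for a shared culture or batch. A replicate block changed 1 of the 120 calls: Fgfr3 in the TCF3 group against the induced monomer passed, at -0.53 (adjusted p = 0.0462, edgeR).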
